A study of Mus musculus with 4 samples.

Results

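The T-box transcription factors described here are 6 genes, Eomes, Tbr1, Tbx2, Tbx3, Tbx5 and Tbx20, taken by gene symbol from a table of 55471 mouse genes. They stand for T-box factors of ganglion, amacrine and dorsal retinal cells and were selected on their counts in these same sorted fractions, so their levels and fold changes between the fractions are given as a description with no test. RNA was measured in retinal amacrine cells of C57BL6 mice aged P6-7 that carried Ai9 together with Gbx2-CreERT2-IRES-EGFP, which places CreERT2 and GFP under Gbx2. Every analysed cell had been sorted as tdTomato-positive, the red label that Ai9 gives after Cre acts, and so came from cells in which the Gbx2-driven Cre had acted. The GFP-positive fraction, named Cell type 2 by the study, had 2 libraries (replicates 2 and 3), and the GFP-negative fraction, Cell type 1, had 2 libraries (replicates 2 and 6). Each library came from 750 to 2500 sorted cells of 1 animal, and both sexes were represented in the study.

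T-box proteins share a DNA-binding domain, the T-box, and act as activators or repressors that fix cell identity in many embryonic tissues. Eomes, Tbr1 and Tbx21 form one subfamily. In the retina Eomes and Tbr1 are best known from ganglion cells, Eomes in the melanopsin-bearing intrinsically photosensitive ganglion cells and Tbr1 in ganglion cell types with dendrites in defined layers, and both have also been described in amacrine cells. Tbx2, Tbx3 and Tbx5 are known from the dorsal side of the developing eye, where bone morphogenetic protein (BMP) signalling maintains them, and Tbx20 is best known from the heart.

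Library totals ran from 41040667 to 44689917 counts, with 21363 to 22626 genes detected. Gbx2, the gene that drives the Cre and GFP, had 602 and 496 CPM (counts scaled to TMM-adjusted library size) in GFP-positive libraries, against 28.6 and 55.5 CPM in GFP-negative libraries, a log2 fold change of 3.71 ± 0.44 (SE; edgeR quasi-likelihood test, Benjamini-Hochberg adjusted p = 0.0118). Pax6, a defining amacrine factor, was at 1970 and 1285 CPM in GFP-positive libraries and at 1468 and 2244 CPM in GFP-negative libraries. Summed CPM of 16 rod markers was 11578 and 19553 in GFP-positive libraries, against 10166 and 2797 in GFP-negative libraries, so GFP-negative replicate 6 stood apart as the library lowest in rod transcripts. Summed CPM of 15 amacrine markers ran the other way, at 7044 and 5150 in GFP-positive libraries and 8289 and 14243 in GFP-negative libraries. In bulk RNA, fewer cells of a type and less RNA per cell cannot be told apart.

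To show how far reads of the closest relatives could be confused, a 90-base coding stretch of the T-box was aligned without gaps. It was picked as the 30-codon stretch of Eomes best matched by amino acid across all 7 genes. Identity over the rest of the T-box was not measured. It spans codons 429 to 458 of Eomes-201, codons 364 to 393 of Tbr1-201 and codons 296 to 325 of Tbx21-201 (GENCODE M21 transcripts). Capitals mark bases that differ from Eomes.
Eomes: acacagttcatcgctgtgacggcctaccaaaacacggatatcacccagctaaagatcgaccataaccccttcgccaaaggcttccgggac
Tbr1: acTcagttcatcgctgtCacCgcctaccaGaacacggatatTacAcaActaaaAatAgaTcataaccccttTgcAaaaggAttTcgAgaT
Tbx21: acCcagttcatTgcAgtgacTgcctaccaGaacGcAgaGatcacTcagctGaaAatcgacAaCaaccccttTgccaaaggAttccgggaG
Tbr1 and Tbx21 each shared 74 of the 90 bases (82.2%) with Eomes. All 30 codons of Tbr1 encode the same amino acid as those of Eomes, against 26 of 30 in Tbx21. The stretches of Tbx2, Tbx5, Tbx3 and Tbx20 shared 71, 67, 63 and 63 bases with Eomes, and 47 bases were identical in all 7 genes. Over the 21 pairs of T-box transcripts compared, the longest identical run was 23 bases.

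Eomes was nearly absent from GFP-positive cells and abundant in GFP-negative cells. Its gene (ENSMUSG00000032446) lies on GRCm38 at chr9:118478212-118486132 on the plus strand. Eomes had 25 and 87 counts in GFP-positive libraries, against 5804 and 8056 counts in GFP-negative libraries. Scaled to library size these were 0.546 and 1.83 CPM in GFP-positive libraries and 139 and 225 CPM in GFP-negative libraries. The fractions did not overlap, and the higher GFP-positive library was still far below the lower GFP-negative one. The mean was 1.19 ± 0.906 CPM in GFP-positive cells and 182 ± 60.9 CPM in GFP-negative cells (SD, n = 2 each), a 153-fold lower mean and a log2 fold change of -7.24 ± 0.57 (SE). On a per-length scale Eomes stood above 8.19% and 19.2% of the 17924 tested genes with a length in the GFP-positive libraries, and above 90.8% and 93.6% of them in the GFP-negative libraries. Eomes CPM differed 3.35-fold between the GFP-positive libraries and 1.62-fold between the GFP-negative libraries.

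Tbx21, which encodes T-bet and is the third gene of the Eomes subfamily, is not among the 6 genes but is given beside Eomes. It lies at chr11:97098071-97115331 on the minus strand. Tbx21 had 190 and 96 counts in GFP-positive libraries, against 895 and 2413 counts in GFP-negative libraries. It fell to a mean of 3.08 ± 1.51 CPM in GFP-positive cells, against 44.4 ± 32.5 CPM in GFP-negative cells (SD, n = 2 each), 14.4-fold lower, with a log2 fold change of -3.85 ± 0.65 (SE; edgeR adjusted p = 0.0342). Both GFP-negative libraries were above both GFP-positive ones. The call was lost without GFP-positive replicate 2 (adjusted p = 0.112), without GFP-positive replicate 3 (adjusted p = 0.294) and without GFP-negative replicate 6 (adjusted p = 0.296) in the same edgeR fit, with the direction kept. The 4 libraries ranked by Tbx21 as they did by summed amacrine markers, and also by summed ganglion cell markers, Tbr1-linked genes and BMP signalling genes. Summed genes linked to intrinsically photosensitive ganglion cells and Eomes gave this order too. The part of these in the Tbx21 values was not tested. By Eomes the GFP-positive libraries ranked the other way. Eomes and Tbx21 are also known from natural killer and T cells. Of their defining markers Cd3e, Ncr1 and Gzma were at 0 in all 4 libraries, and Nkg7 had 9 counts in GFP-negative replicate 6 and 0 in the other libraries. Ptprc, listed with them among microglia and lymphoid markers, had 36 and 31 counts in GFP-positive libraries and 97 and 40 counts in GFP-negative libraries. The part of such cells in the Eomes and Tbx21 values was not tested.

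The sequence just upstream of Eomes and Tbx21 is shown because both genes were low in GFP-positive libraries. The 250 bases before the RefSeq start site (GRCm38.p6) are chr9:118477939-118478188 on the plus strand for Eomes and chr11:97115332-97115581 on the minus strand for Tbx21.
Eomes: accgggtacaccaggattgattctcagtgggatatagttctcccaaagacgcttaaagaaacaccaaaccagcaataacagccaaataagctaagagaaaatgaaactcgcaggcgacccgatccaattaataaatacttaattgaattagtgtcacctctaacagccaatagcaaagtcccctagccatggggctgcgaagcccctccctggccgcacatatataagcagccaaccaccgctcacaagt
Tbx21: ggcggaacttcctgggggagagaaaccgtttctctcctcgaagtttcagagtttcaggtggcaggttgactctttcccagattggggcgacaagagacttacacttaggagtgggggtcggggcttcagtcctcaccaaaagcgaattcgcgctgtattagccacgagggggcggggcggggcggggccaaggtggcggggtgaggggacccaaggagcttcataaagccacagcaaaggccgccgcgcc
Windows of 300 bases (250 before to 50 after the start site) were searched on both strands for AGGTGTGA, a T-box element half-site, for its shorter core GGTGTGA, which lies within it, and for TAATTA, a homeodomain motif that reads the same on both strands. None of the 3 strings was in the window of Eomes, Tbx20 or Tbx21, and no capitals therefore appear. The window of Tbr1 held TAATTA at 2 places, 33 and 18 bases before the start site, and neither of the others. Among 32851 RefSeq promoter windows of the same length, 1.28% held AGGTGTGA, 3.98% held GGTGTGA and 5.29% held TAATTA.

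**Figure D1:**
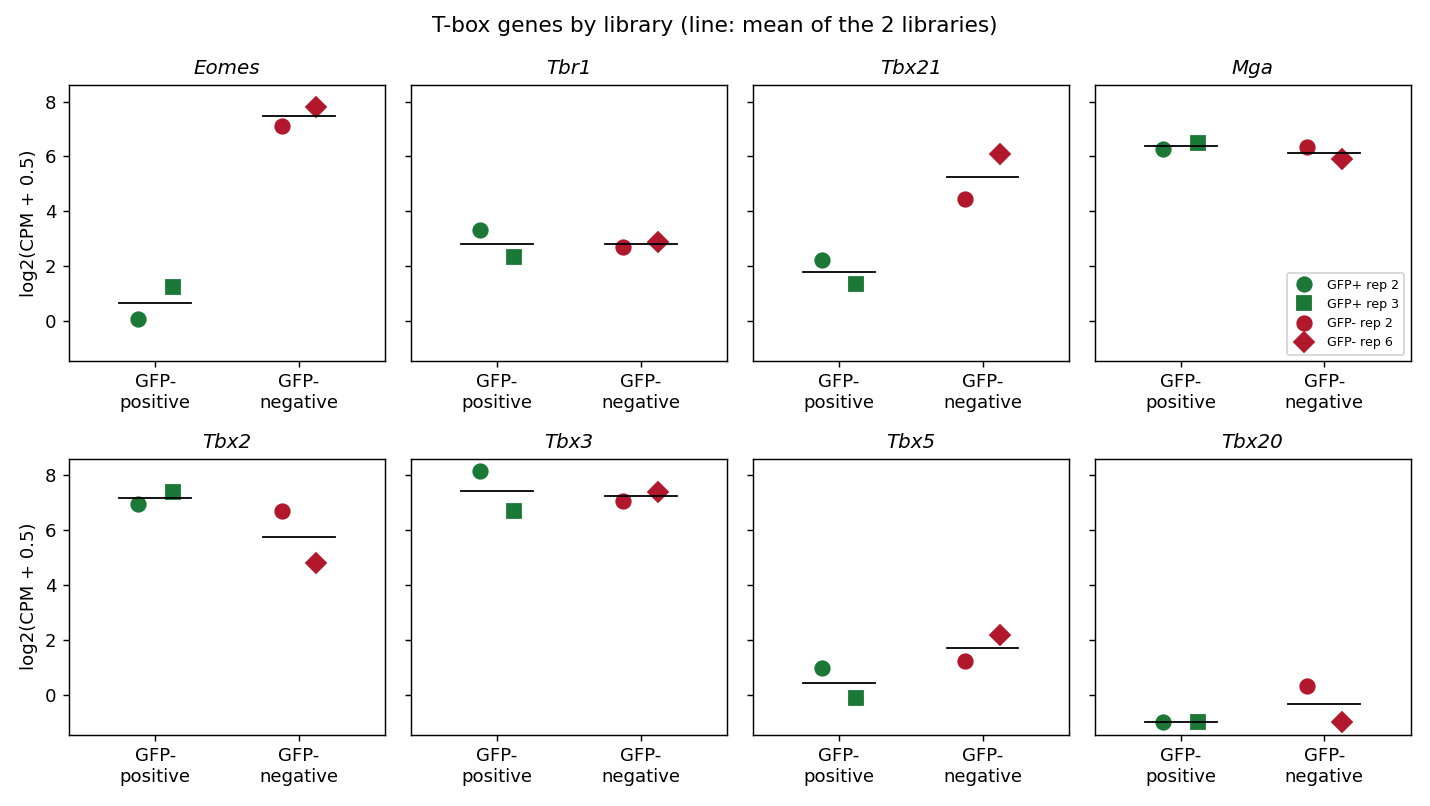
Level of each gene in log2(CPM + 0.5), with 1 point per library, GFP-positive libraries left of GFP-negative ones, and a line at the mean of the 2 libraries of a fraction. Eomes and Tbx21 are low in both GFP-positive libraries, whereas the libraries of the fractions overlap for Tbr1 and Tbx3.

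Tbr1, a regulator of glutamatergic neuron identity in the cortex, was low in both fractions. The gene (ENSMUSG00000035033) lies at chr2:61802930-61814114 on the plus strand. Tbr1 had 437 and 213 counts in GFP-positive libraries and 253 and 245 counts in GFP-negative libraries, or 9.55 and 4.48 CPM against 6.04 and 6.84 CPM. The GFP-positive libraries gave both the highest and the lowest value, so the fractions overlapped, and the log2 fold change was 0.12 ± 0.57 (SE). Without GFP-positive replicate 2 it was -0.54, and without GFP-positive replicate 3 it was 0.56, so its sign rested on single libraries. Tbr1 made up 2.00% and 1.14% of summed T-box RPKM (CPM per kilobase of exon) in GFP-positive libraries and 1.12% and 1.03% in GFP-negative libraries.

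Tbx2, a repressor known from the dorsal eye and from photoreceptor fate, was among the most abundant T-box transcripts except in 1 GFP-negative library. The gene (ENSMUSG00000000093) lies at chr11:85832551-85841948 on the plus strand. Tbx2 had 5709 and 8020 counts in GFP-positive libraries and 4357 and 975 counts in GFP-negative libraries, or 125 and 169 CPM against 104 and 27.2 CPM. The fractions did not overlap, but GFP-negative replicate 2 was close to the GFP-positive libraries and GFP-negative replicate 6 was low. The mean was 147 ± 30.9 CPM in GFP-positive cells and 65.6 ± 54.4 CPM in GFP-negative cells (SD, n = 2 each), with a log2 fold change of 1.16 ± 0.54 (SE). That value was 0.50 without GFP-negative replicate 6 and 2.37 without GFP-negative replicate 2.

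The order of the 4 libraries by Tbx2 was also their order by summed rod and bipolar markers. Summed horizontal cell markers and summed endothelial and pericyte markers gave this order too. The endothelial and pericyte sum was 122 and 129 CPM in GFP-positive libraries and 98.3 and 64.6 CPM in GFP-negative libraries. Most of it was Kdr, at 118 and 69.2 CPM in GFP-positive libraries and 79.6 and 58.5 CPM in GFP-negative libraries. Kdr alone did not give this order. Summed CPM of 11 bipolar markers was 1414 and 1998 in GFP-positive libraries and 1206 and 522 in GFP-negative libraries, and that of 9 cone markers was 410 and 752 in GFP-positive libraries and 453 and 76.7 in GFP-negative libraries. All 16 rod, 8 of 9 cone and 9 of 11 bipolar markers had a positive log2 fold change, where the median of all tested genes was 0.04. Every marker of these lists was tested and 0 were called in edgeR, where 1.1% of all tested genes were. Past an unadjusted p of 0.05 were 5 rod, 3 cone and 4 bipolar markers, against 12.6% of all tested genes. DESeq2 called 0 rod, 0 cone and 1 bipolar marker higher, against 208 among all tested genes. The part of these cell types in the Tbx2 values was not tested.

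**Figure D2:**
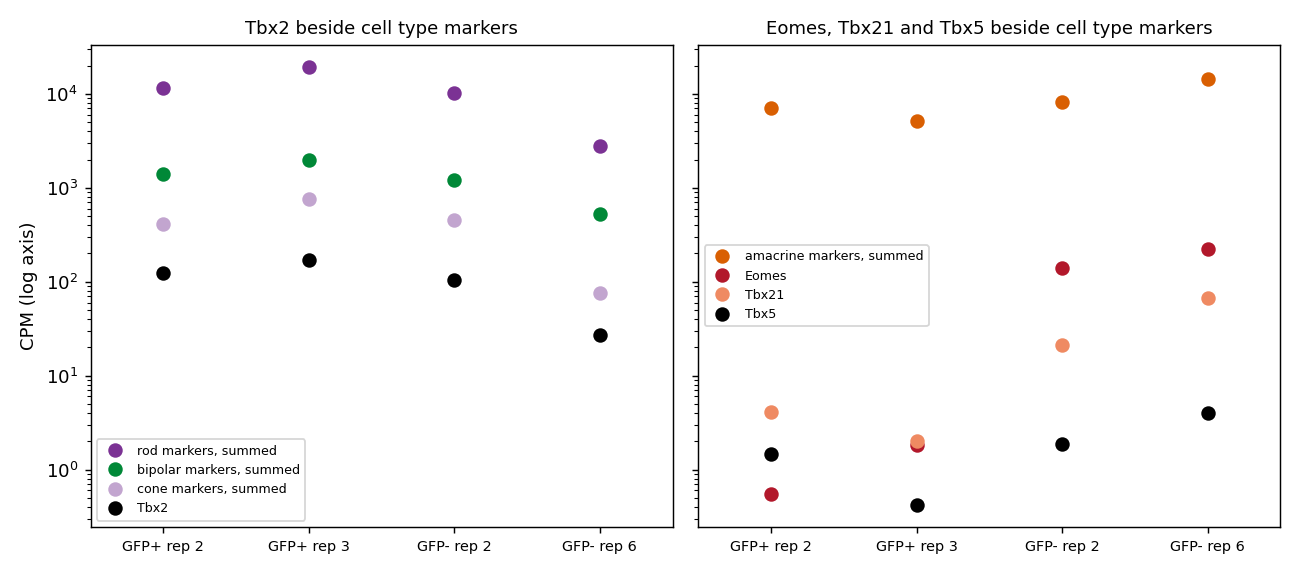
CPM on a log axis in each of the 4 libraries, GFP-positive libraries on the left: Tbx2 with summed rod, bipolar and cone markers in the first panel, and Eomes, Tbx21 and Tbx5 with summed amacrine markers in the second. Tbx2 and the rod sum are lowest in GFP-negative replicate 6 (27.2 and 2797 CPM), where Tbx5 and the amacrine sum are highest (4.02 and 14243 CPM).

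Tbx3, the closest relative of Tbx2 and likewise a repressor, was abundant in all 4 libraries. The gene (ENSMUSG00000018604) lies at chr5:119670669-119684724 on the plus strand. Tbx3 had 12985 and 4931 counts in GFP-positive libraries and 5542 and 6071 counts in GFP-negative libraries, or 284 and 104 CPM against 132 and 169 CPM. GFP-positive replicate 2 was the highest library and GFP-positive replicate 3 the lowest, so the fractions overlapped. The mean was 194 ± 127 CPM in GFP-positive cells and 151 ± 26.2 CPM in GFP-negative cells (SD, n = 2 each), with a log2 fold change of 0.36 ± 0.46 (SE). Without GFP-positive replicate 2 the log2 fold change was -0.56, and without GFP-positive replicate 3 it was 0.91. Tbx2 and Tbx3 did not vary together within a fraction: the GFP-positive library with less Tbx2 had 2.74 times the Tbx3 CPM of the other, and the GFP-negative library with less Tbx2 had 1.28 times as much.

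Tbx5, known from the dorsal retina, heart and forelimb, was low. The gene (ENSMUSG00000018263) lies at chr5:119832668-119885219 on the plus strand, 147944 bases beyond Tbx3 and on the same strand. Tbx5 had 67 and 20 counts in GFP-positive libraries and 78 and 144 counts in GFP-negative libraries, or 1.46 and 0.420 CPM against 1.86 and 4.02 CPM. The fractions did not overlap, though GFP-positive replicate 2 and GFP-negative replicate 2 lay close together, and the log2 fold change was -1.63 ± 0.89 (SE). Leaving out replicate 2 of the GFP-positive fraction gave -2.81 and leaving out its replicate 3 gave -0.997. Leaving out replicate 2 of the GFP-negative fraction gave -2.16 and leaving out its replicate 6 gave -0.992. The 4 libraries ranked by Tbx5 as they did by summed amacrine markers. Summed ganglion cell markers, Tbr1-linked genes and BMP signalling genes gave the same order, so it was not particular to amacrine markers. Summed genes linked to intrinsically photosensitive ganglion cells and Eomes gave it too. The part of these in the Tbx5 values was not tested.

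Tbx20, on the minus strand at chr9:24718138-24774303 (ENSMUSG00000031965), had 0 counts in both GFP-positive libraries, 31 counts in GFP-negative replicate 2 and 0 counts in GFP-negative replicate 6. The signal thus came from 1 library, and the gene did not pass the filter on low counts. A floor of 3 counts was worth 0.0630 to 0.0837 CPM by library.

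Of the 6 genes, 5 passed the filter on low counts into the fit of all 17940 genes. Since they were selected on these values, the count past an adjusted p of 0.05 in edgeR is given as a description only: it was 1 of the 5 (Eomes), where 1.1% of all tested genes were, 0.234% as higher and 0.87% as lower in GFP-positive cells. For 3 of the 5, Eomes, Tbx2 and Tbx5, the libraries of the fractions did not overlap, as was the case for 43.8% of all tested genes. The median log2 fold change of all tested genes was 0.04.

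**Figure D3:**
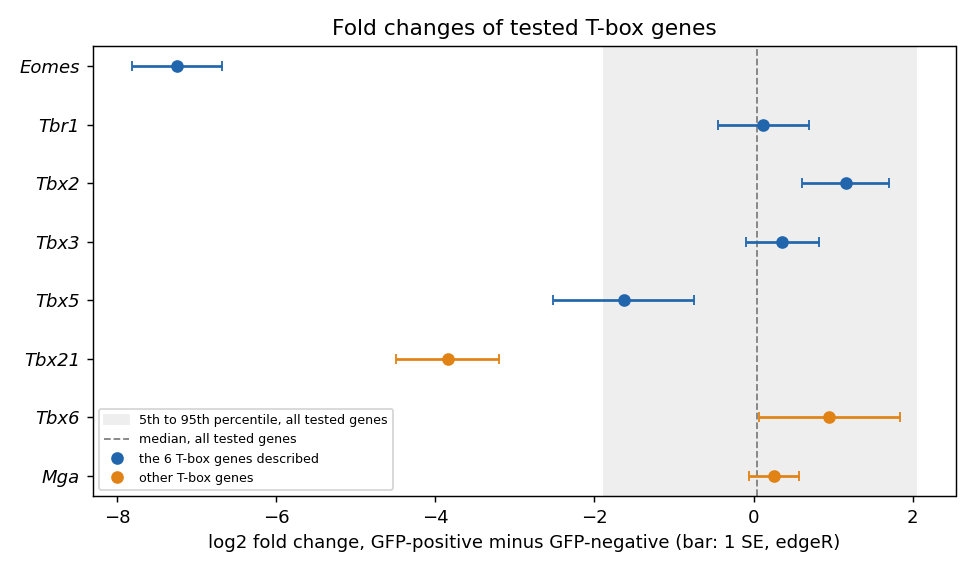
log2 fold change, GFP-positive minus GFP-negative, with 1 SE from edgeR for each tested T-box gene, beside the 5th to 95th percentile of all tested genes (grey band, -1.88 to 2.04) and their median (dashed line). Eomes (-7.24) and Tbx21 (-3.85) lie outside the band, and Tbx1, at 0 in the GFP-negative fraction, is not drawn.

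The other 11 T-box family genes added little transcript apart from Tbx21 and Mga. Of these genes, 8 had a count in some library, 4 were tested and 1 was lower in GFP-positive cells (Tbx21), where 0.87% of all tested genes were; 0 were higher in edgeR. DESeq2 called 1 lower and 0 higher, where it called 579 lower and 208 higher among all tested genes. Of the 4, 2 were past an unadjusted p of 0.05, as were 12.6% of all tested genes. Mga, a large Max partner with a T-box, was at 77.4 and 89.1 CPM in GFP-positive libraries and 80.3 and 59.0 CPM in GFP-negative libraries (log2 fold change 0.26, edgeR adjusted p = 0.794). Tbx1, known from the pharyngeal arches, had 23 and 60 counts in GFP-positive libraries and 0 counts in both GFP-negative libraries. Its mean CPM was at least 22.8-fold higher in GFP-positive cells, with 3 counts over the GFP-negative fraction as the floor, and the difference did not pass the test (edgeR adjusted p = 0.281). Tbx6 had 61 and 80 counts in GFP-positive libraries and 47 and 14 counts in GFP-negative libraries (log2 fold change 0.95 ± 0.89, SE; edgeR adjusted p = 0.716). Tbx4, Tbx10 and Tbx15 had 5, 2 and 7 counts in GFP-negative replicate 6 alone, brachyury (T) had 7 counts in GFP-positive replicate 3 alone, and Tbx18, Tbx19 and Tbx22 were at 0 throughout.

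Per exon length, different T-box genes led in the 2 fractions. The RPKM of all 17 T-box genes summed to 87.0 and 71.4 in GFP-positive libraries and to 98.1 and 120.5 in GFP-negative libraries. Tbx2 and Tbx3 led in GFP-positive cells: Tbx2 had 40.4 ± 8.53 RPKM and Tbx3 29.2 ± 19.2 RPKM (SD, n = 2), which overlapped, followed by Mga at 5.43 ± 0.539 RPKM. Tbr1 (1.28 ± 0.654 RPKM) and Tbx21 (1.24 ± 0.607 RPKM) came next with Tbx6 (0.835 ± 0.136 RPKM), and their libraries overlapped. Eomes followed at 0.286 ± 0.218, Tbx1 at 0.251 ± 0.152 and Tbx5 at 0.202 ± 0.158 RPKM, again with overlapping libraries.

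In GFP-negative cells Eomes led with 43.7 ± 14.7 RPKM (SD, n = 2). Tbx3 (22.8 ± 3.95 RPKM), Tbx2 (18.1 ± 14.99 RPKM) and Tbx21 (17.8 ± 13.1 RPKM) followed with overlapping libraries, then Mga at 4.54 ± 0.981, Tbr1 at 1.17 ± 0.102 RPKM. Tbx5 (0.629 ± 0.326 RPKM) and Tbx6 (0.419 ± 0.287 RPKM) were lower still and overlapped. Eomes made up 0.151% and 0.616% of T-box RPKM in GFP-positive libraries, against 34.0% and 44.9% in GFP-negative libraries. Tbx2 made up 39.5% and 65.1% in GFP-positive libraries, against 29.3% and 6.22% in GFP-negative libraries. Tbx3 made up 49.2% and 21.9% in GFP-positive libraries, against 20.4% and 21.2% in GFP-negative libraries, and Tbx21 made up 1.92% and 1.13% in GFP-positive libraries, against 8.76% and 22.5% in GFP-negative libraries. Within the GFP-positive fraction the leading gene changed from library to library, Tbx3 in replicate 2 and Tbx2 in replicate 3, whereas Eomes led in both GFP-negative libraries.

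**Figure D4:**
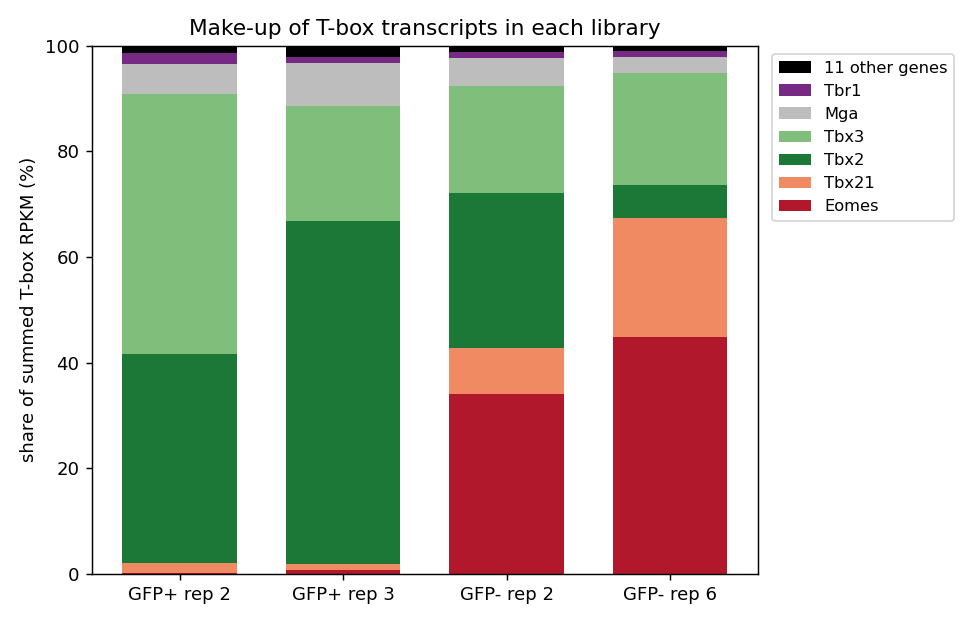
Share of summed T-box RPKM (%) taken by each gene in each library, as stacked bars with GFP-positive libraries on the left; the 11 remaining T-box genes are summed. Eomes holds 34.0% and 44.9% in the GFP-negative libraries and under 1% in the GFP-positive ones.

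Ganglion cell genes ranged widely in level. Opn4, which encodes melanopsin, had 0 counts in both GFP-positive libraries and 55 and 15 counts in GFP-negative libraries (edgeR adjusted p = 0.258). Pou4f2, a ganglion cell factor, was at 0.568 and 0 CPM in GFP-positive libraries and 2.72 and 2.15 CPM in GFP-negative libraries. Pou4f1 was at 5.09 and 1.79 CPM in GFP-positive libraries against 2.32 and 2.23 CPM in GFP-negative libraries, and Slc17a6, the vesicular glutamate transporter of ganglion cells, was at 5.64 and 0.778 CPM against 7.69 and 8.18 CPM. Rbpms, an RNA-binding protein used as a ganglion cell marker, was at 28.9 and 26.0 CPM in GFP-positive libraries and 10.1 and 7.34 CPM in GFP-negative libraries, the reverse of Eomes. Among the more abundant genes of the list, named here after their values were seen, the neurofilament gene Nefl was at 94.7 and 32.4 CPM in GFP-positive libraries and 191 and 239 CPM in GFP-negative libraries (edgeR adjusted p = 0.175), and Grip1 was at 90.7 and 63.9 CPM against 136 and 143 CPM.

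All 15 ganglion cell markers were tested and 0 were called in edgeR in either direction, where 1.1% of all tested genes were called. Past an unadjusted p of 0.05 were 4, as were 12.6% of all tested genes. DESeq2 called 1 higher and 1 lower, where it called 208 higher and 579 lower among all tested genes. The median log2 fold change of the 15 markers was -0.32. Their summed CPM was 361 and 203 in GFP-positive libraries and 496 and 535 in GFP-negative libraries. Of 11 genes linked to intrinsically photosensitive ganglion cells and Eomes, 9 were tested, with a median log2 fold change of -0.54. Past an unadjusted p of 0.05 were 4, against 12.6% of all tested genes. DESeq2 called 1 lower and 0 higher, where it called 579 lower and 208 higher among all tested genes. In edgeR 1 was lower in GFP-positive cells, where 0.87% of all tested genes were. That gene was Baiap3, a protein of dense-core vesicle traffic, with 14.3 ± 8.53 CPM in GFP-positive cells and 90.3 ± 20.1 CPM in GFP-negative cells (SD, n = 2 each; log2 fold change -2.66 ± 0.46, SE; edgeR adjusted p = 0.0361). Its call was lost without GFP-positive replicate 3 (adjusted p = 0.168, edgeR) or GFP-negative replicate 6 (adjusted p = 0.283, edgeR). Adcyap1, the neuropeptide of these ganglion cells, was at 1.73 and 0.988 CPM in GFP-positive libraries and 0.382 and 0.949 CPM in GFP-negative libraries, and the growth factor gene Igf1 was at 8.22 and 20.95 CPM against 20.7 and 8.04 CPM.

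Among the amacrine genes followed beside Eomes, Gad1, a GABA-synthesising enzyme, fell to 154 and 69.2 CPM in GFP-positive libraries, against 984 and 1765 CPM in GFP-negative libraries (log2 fold change -3.62 ± 0.54, SE; edgeR adjusted p = 0.0230). Tfap2b, an amacrine transcription factor, was at 63.3 and 25.01 CPM in GFP-positive libraries and 137 and 161 CPM in GFP-negative libraries (edgeR adjusted p = 0.135). Of the 15 amacrine markers 14 were tested, of which 3 were lower (Gad1, Gad2 and Tfap2c) and 1 was higher (Calb2) in GFP-positive cells in edgeR, where 0.87% of all tested genes were lower and 0.234% higher. How these calls, and that of Gbx2, fared with a library left out is not given by gene. Counts of calls over all genes changed widely in that setting. DESeq2 called 6 lower and 1 higher, where it called 579 lower and 208 higher among all tested genes. Past an unadjusted p of 0.05 were 11, against 12.6% of all tested genes. The median log2 fold change of the amacrine markers was -1.38.

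Genes linked to Tbr1 went both ways. All 13 were tested, 6 with a positive log2 fold change, and the median was -0.07. In edgeR 1 was lower in GFP-positive cells and 0 were higher, where 0.87% of all tested genes were lower and 0.234% higher. Past an unadjusted p of 0.05 were 9, against 12.6% of all tested genes. DESeq2 called 4 lower and 0 higher, where it called 579 lower and 208 higher among all tested genes. The gene called in edgeR was Cdh8, a cadherin, with 11.7 ± 4.83 CPM in GFP-positive cells and 94.2 ± 16.7 CPM in GFP-negative cells (SD, n = 2 each; log2 fold change -3.01 ± 0.39, SE; edgeR adjusted p = 0.0146). Its call was lost without GFP-positive replicate 2 (adjusted p = 0.0564, edgeR), GFP-positive replicate 3 (adjusted p = 0.0603, edgeR) or GFP-negative replicate 6 (adjusted p = 0.136, edgeR). Reln, a secreted guidance glycoprotein and a known cortical target of Tbr1, was at 1286 and 707 CPM in GFP-positive libraries and 1665 and 3520 CPM in GFP-negative libraries (edgeR adjusted p = 0.326). Jam2, an adhesion molecule that marks a ganglion cell type with asymmetric dendrites, was at 126 and 134 CPM in GFP-positive libraries and 119 and 22.9 CPM in GFP-negative libraries, and so was low in the library that was also low in Tbx2.

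The dorsal and ventral retinal genes followed beside Tbx2, Tbx3 and Tbx5 showed no call in edgeR, where 1.1% of all tested genes were called. Of 7 dorsal genes 6 were tested, with a median log2 fold change of -0.35, 0 calls in edgeR, 1 past an unadjusted p of 0.05 and 1 lower call in DESeq2. Of 8 ventral genes 7 were tested, with a median of -0.31. Calls numbered 0 in edgeR and 0 in DESeq2, and 2 genes were past an unadjusted p of 0.05. Among all tested genes 12.6% were past an unadjusted p of 0.05, and DESeq2 called 579 lower and 208 higher. Efnb2, a dorsal ephrin, was at 164 and 78.9 CPM in GFP-positive libraries and 89.3 and 182 CPM in GFP-negative libraries, and its ventral counterpart, the receptor Ephb2, was at 138 and 114 CPM against 85.7 and 154 CPM. Vax2, a ventral homeodomain factor, was at 51.0 and 56.7 CPM in GFP-positive libraries and 55.1 and 78.5 CPM in GFP-negative libraries. The retinoic acid enzymes were low: dorsal Aldh1a1 had 4.76 and 7.94 CPM in GFP-positive libraries and 5.02 and 3.68 CPM in GFP-negative libraries, and ventral Aldh1a3 had 1.09 and 0.336 CPM against 4.97 and 3.04 CPM.

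Of 19 genes of BMP signalling 15 were tested, with a median log2 fold change of 0.01. In edgeR 1 was lower and 0 higher, in DESeq2 4 were lower and 0 higher, and 4 were past an unadjusted p of 0.05. Among all tested genes 0.87% were lower and 0.234% higher in edgeR, and 12.6% were past an unadjusted p of 0.05. DESeq2 called 579 lower and 208 higher among all tested genes. These backgrounds also apply to the lists that follow. Bmp4, the dorsal ligand, had 44 counts in GFP-positive replicate 2 and 0 in the other libraries. The call in edgeR was Id4, an inhibitor of basic helix-loop-helix factors, with 155 ± 36.1 CPM in GFP-positive cells and 803 ± 227 CPM in GFP-negative cells (SD, n = 2 each; log2 fold change -2.38 ± 0.40, SE; edgeR adjusted p = 0.0342). The Id4 call was lost without GFP-positive replicate 2 (adjusted p = 0.146, edgeR), GFP-positive replicate 3 (adjusted p = 0.434, edgeR) or GFP-negative replicate 6 (adjusted p = 0.179, edgeR). Among 17 partners and corepressors of T-box proteins 12 were tested, with a median log2 fold change of 0.18 and 0 calls in edgeR; 4 were past an unadjusted p of 0.05, and DESeq2 called 1 lower. The cardiac partners Nkx2-5, Gata4, Gata6 and Hand2 and the limb partner Sall4 were at 0 in all libraries. Of 9 genes known to be repressed by Tbx2 or Tbx3 in other tissues 7 were tested, with a median of -0.21 and 0 calls in edgeR; 2 were past an unadjusted p of 0.05, and DESeq2 called 2 lower. Over all 106 related genes 85 were tested, of which 4 were lower (Tbx21, Baiap3, Cdh8 and Id4) and 0 higher in edgeR, where 1.1% of all tested genes were called. DESeq2 called 14 lower and 1 higher, where it called 579 lower and 208 higher among all 17940 tested genes. Past an unadjusted p of 0.05 were 30, against 12.6% of all tested genes.

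**Figure D5:**
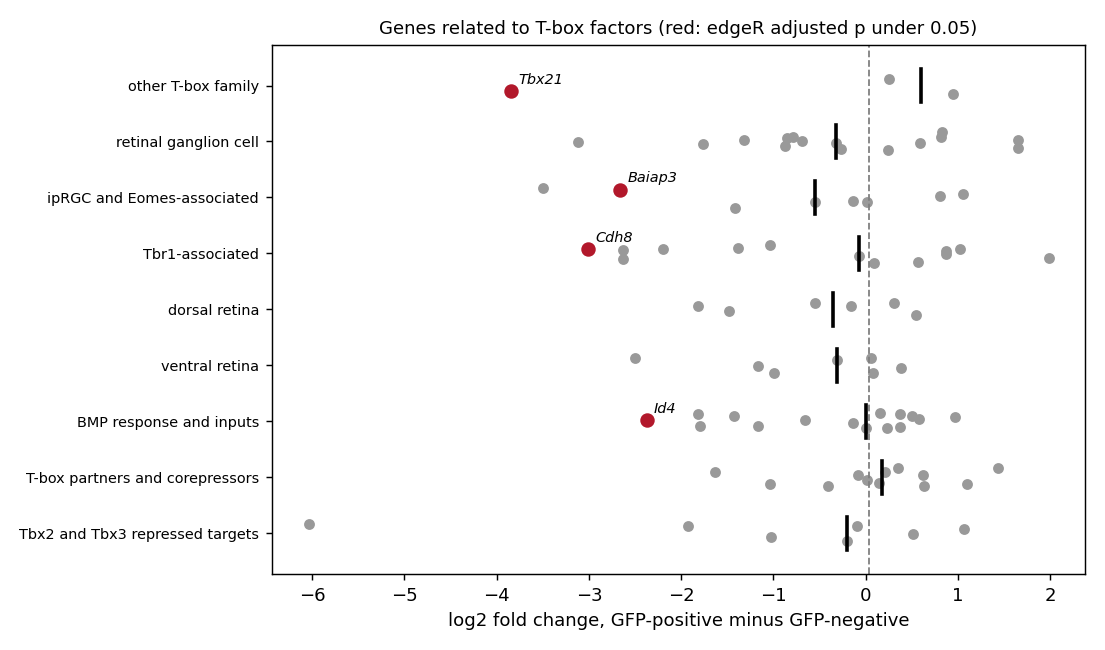
log2 fold change, GFP-positive minus GFP-negative, of each tested gene in 9 lists related to T-box factors, with a black bar at each list's median, a dashed line at the median of all tested genes (0.04) and the called genes in red; genes at 0 in a fraction (Tbx1 and Opn4) are not drawn. The 4 called genes all lie on the lower side.

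By the smallest root mean square difference of centred log2(CPM + 0.5) over the 4 libraries, among 10813 candidate genes, the genes most like Eomes were Frem3 (0.44), Mc4r (0.50), Pcsk1 (0.73), Fst (0.74) and Chrm2 (1.00), in log2 units. Frem3, an extracellular matrix protein, had 0 CPM in both GFP-positive libraries and 34.2 and 73.6 CPM in GFP-negative libraries. Mc4r, the melanocortin receptor, had 0 CPM in both GFP-positive libraries and 27.3 and 67.1 CPM in GFP-negative libraries. Fst, which encodes the activin and BMP antagonist follistatin, had 0.328 and 1.41 CPM in GFP-positive libraries and 31.5 and 105 CPM in GFP-negative libraries. Tbx21 ranked 61 in this order, with a difference of 1.85.

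The genes most like Tbx2 were Chd7, a chromatin remodeller (0.02), Igsf9, Trib1, Btg2 and Eml3 (up to 0.08). Chd7 had 234 and 312 CPM in GFP-positive libraries and 200 and 50.8 CPM in GFP-negative libraries, with the same low library. The genes most like Tbx5 were Sprn, Itfg1, Gng4, Zdhhc14 and Kcna5 (0.01 to 0.07), those most like Tbx3 were Hace1, Khnyn, Ttc37, Frs2 and Hus1 (0.05 to 0.10), and those most like Tbr1 were Hif1an, Lmtk2, Zfp382, Zfp58 and Prkaa1 (0.04 to 0.05). With 4 libraries and 10813 candidates, close matches are many, and these names describe the patterns only.

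Annotated antisense genes overlap Eomes and Tbx3, and since the strand setting of the counting is not stated in these sources, their reads cannot be told apart from those of the overlapped gene. Gm33460, antisense to Eomes, had 0 counts in both GFP-positive libraries and 12 and 13 counts in GFP-negative libraries. Tbx3os1, antisense to Tbx3, had 108 and 183 counts in GFP-positive libraries and 20 and 45 counts in GFP-negative libraries (edgeR adjusted p = 0.412), and so was highest in the library where Tbx3 was lowest. The gene next to Eomes, Golga4, starts 20135 bases beyond it and had 6421 and 7845 counts in GFP-positive libraries and 5696 and 4571 counts in GFP-negative libraries. Tbx2 and its neighbour Bcas3, 6493 bases away, did not share an order: Bcas3 had 4679 and 2373 counts in GFP-positive libraries and 3276 and 3396 counts in GFP-negative libraries.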

How the data were processed

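RNA from tdTomato-positive retinal cells, sorted by GFP, was isolated with a small-sample kit, amplified and sequenced after SMART-Seq ultra low input preparation, per the labels' protocols. The authors deposited raw counts for each Ensembl gene. A second deposited table holds signal values that its header calls CPM, relative to a library size scaled in a way the labels do not describe; converted to reads, 100% of its values were whole to within 0.01 and equal to the counts, and edgeR on them called 200 genes of 17941. The submitters' processing notes list GRCm38, STAR 2.7.3a, Trimmomatic, MultiQC and limma. How reads were assigned to genes (tool, strand, multiple mappings) was not stated in these sources. Gene IDs were matched to GENCODE M21 (55230 of 55471) for coordinates and exon length.

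Other replicates of the 4 stated in the series text were not analysed here. Replicates of a fraction are separate animals, as far as that text says. It names 3 litters, and the litter of each library is not given here. Whether replicate 2 of both fractions came from the same animal is not stated. Counts of the 4 libraries were tested in R 4.3.3 by edgeR 4.0.16 with TMM scaling. The filter was filterByExpr (minimum count 10, minimum total 15), which kept 17940 genes. A robust quasi-likelihood fit with 2 residual degrees of freedom gave GFP-positive minus GFP-negative. Benjamini-Hochberg adjustment ran over all tested genes at 0.05. SE and SD values include variation between libraries, whereas floors are set in reads and do not. Since reads are not independent molecules, floors do not give the full counting error either. The biological coefficient of variation was 55.4%. SE values were obtained by dividing the size of the log2 fold change by the root of its F statistic. CPM used effective library sizes, and RPKM divided CPM by exon-union length. The 6 genes, the gene lists and the tests were chosen with earlier results of these data known. Named genes were the 6 genes, other T-box genes with a count, the 5 nearest patterns per tested gene (mean CPM at least 5), up to 4 called genes per list, and a set given whether or not it passed. Alternatives were scaling by RLE or by library size alone, dropping or tightening the filter on low counts, DESeq2 1.42.0, the longest transcript as length, each library left out, and, chosen after seeing the data, a legacy quasi-likelihood fit and the recovered reads.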

Additional observations from a re-analysis of the deposited data

How the results depend on the processing

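No paired analysis was possible because the fractions share only replicate number 2, so a replicate block leaves no residual degrees of freedom. With 2 libraries per fraction the counts of calls depended on the settings. Genes higher in GFP-positive libraries numbered 42, against 24 without the filter on low counts, 208 with DESeq2, 13 with the legacy quasi-likelihood fit and 0 to 106 with each library left out. Genes lower numbered 156, against 82, 579, 35 and 1 to 230 under the same settings. Among the related genes 4 were lower, against 1 without the filter, 14 with DESeq2, 0 with the legacy fit and 0 to 7 with each library left out; 0 were higher, against 1 with DESeq2 and 0 to 2 with each library left out. In the last setting a lone library is assumed to vary like the others. With each library left out, log2 fold changes ran from -8.38 to -6.65 for Eomes, -0.54 to 0.56 for Tbr1, 0.50 to 2.37 for Tbx2, -0.56 to 0.91 for Tbx3 and -2.81 to -0.99 for Tbx5. With the longest transcript as length, GFP-negative RPKM was 1.62 in place of 1.17 for Tbr1 and 30.3 in place of 22.8 for Tbx3. The stricter filter left Tbx5 without a value. Adjusted p for Tbx21 was 0.0672 without the filter and 0.113 with the legacy fit. The cause of these shifts was not tested. Low counts limit Tbx5, Tbx20 and Tbx1.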
